A study of Mus musculus with 2 samples.

Results

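A set of 7 genes of the tumour necrosis factor (TNF) system were followed in nucleoplasmic RNA of mouse macrophages: the ligand genes Tnf, Lta, Ltb and Tnfsf9, the receptor genes Tnfrsf1a and Tnfrsf1b, and Tnfaip2, a gene named for its induction by TNF. They were chosen by symbol, and all 7 were found among the 55536 mouse gene identifiers of the gene tables. The cells were primary macrophages grown from the bone marrow of C57BL/6J mice (bone-marrow-derived macrophages), and both libraries came from cells given 100 ng/ml of Lipid A for 20 min. Lipid A is the part of bacterial lipopolysaccharide that the receptor TLR4 senses. No genetic change is named in the labels, and the age and sex of the animals were not collected. Total RNA depleted of ribosomal RNA was sequenced as 2 biological replicates of this 1 group, the first with an RNA input of 1 µg and the second with 500 ng, so input and replicate cannot be told apart. Both replicates carry 1 donor identifier and the labels do not say whether they came from separate cultures, so the spread given here may be technical. No untreated library was analysed here, so levels are described and no effect of Lipid A was tested.

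TNF is made as a membrane protein that the protease ADAM17 cuts from the cell surface, and macrophages are a main source of it. Its gene is a classical early target of NF-kB after TLR4 signalling. TNF binds TNFR1, encoded by Tnfrsf1a and present on most cells, which assembles a complex that activates NF-kB or starts cell death, and TNFR2, encoded by Tnfrsf1b and found mainly on immune and endothelial cells, which lacks a death domain. Lymphotoxin alpha, the product of Lta, binds the same receptors. With lymphotoxin beta, the product of Ltb, it forms a membrane complex that binds the lymphotoxin beta receptor, and both are known mainly from lymphocytes. Tnfsf9 encodes 4-1BB ligand, a costimulatory ligand on antigen-presenting cells. Tnfaip2 encodes a protein linked to membrane protrusions and tunnelling nanotubes.

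Tnf, Lta and Ltb lie side by side on chromosome 17, and their starts are shown because the levels of these neighbours lay far apart. The sequences below are the bases before each annotated gene start, from RefSeq promoter windows (GRCm38.p6, the mm10 build), given 5′ to 3′ on the strand of the gene. Capitals mark the letters TATAAA in Tnf and Lta and a match to the kappa-B consensus, the site that NF-kB binds, in Ltb.
Tnf, chr17:35202008-35202257, minus strand: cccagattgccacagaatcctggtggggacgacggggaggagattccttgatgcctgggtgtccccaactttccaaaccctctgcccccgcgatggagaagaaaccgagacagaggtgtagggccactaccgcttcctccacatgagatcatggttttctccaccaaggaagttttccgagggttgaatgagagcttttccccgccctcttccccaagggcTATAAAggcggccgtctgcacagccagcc
Lta, chr17:35205352-35205601, minus strand: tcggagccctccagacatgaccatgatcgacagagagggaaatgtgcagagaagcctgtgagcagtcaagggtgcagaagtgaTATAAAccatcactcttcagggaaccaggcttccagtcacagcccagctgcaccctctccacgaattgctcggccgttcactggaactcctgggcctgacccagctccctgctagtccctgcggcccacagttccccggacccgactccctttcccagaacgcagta
Ltb, chr17:35194257-35194438, plus strand: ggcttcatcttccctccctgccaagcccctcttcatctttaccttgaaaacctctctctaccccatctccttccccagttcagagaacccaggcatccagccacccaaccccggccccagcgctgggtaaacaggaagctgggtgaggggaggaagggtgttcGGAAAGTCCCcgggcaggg
Windows of 300 bases around the RefSeq start were found for 6 of the 7 genes, all but Tnfsf9. On both strands, 4.51% of 32851 such windows held the kappa-B consensus, 13.6% held TATAAA, 7.81% held the AP-1 letters TGANTCA and 28.3% held GAGGAA, a core that PU.1 binds. In Tnf the TATAAA lay 29 to 24 bases before the RefSeq start, and in Lta it lay 167 to 162 bases before it. The RefSeq start of Ltb lies 68 bases inside the gene as annotated in GENCODE, whose start ends the printed sequence, so its kappa-B match, on the opposite strand, lay 19 to 10 bases before the annotated start and 87 to 78 bases before the RefSeq start. GAGGAA was found in the windows of Tnf, Ltb and Tnfrsf1b, and no other match was found in the 6 windows, which says nothing about sites farther away.

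The 3′ untranslated region of Tnf is shown for its AU-rich element, a sequence through which proteins such as tristetraprolin shorten the life of the mRNA. Bases 440 to 466 of the 764-base region of the main Tnf transcript, from the GENCODE M21 transcripts, read as follows, with 5 copies of the pentamer ATTTA in capitals.
Tnf AU-rich stretch: ATTTAttATTTATTTAttATTTATTTA
The whole region held 8 copies of ATTTA and 5 of the longer TTATTTATT, counted on the RNA strand with overlaps. Of 1201 regions within 10% of its length, 4.33% held TTATTTATT at all. Lta held 3 copies of ATTTA and 1 of TTATTTATT. Tnfsf9, Tnfrsf1b and Tnfaip2 held 2 copies of ATTTA each and no TTATTTATT, and Ltb and Tnfrsf1a held neither. Of 21037 genes with a 3′ untranslated region, 7.65% held TTATTTATT and 65.2% held ATTTA. Among regions within 10% of each gene's length, the median count of ATTTA was 1 for Tnf and Lta. It was 4 for Tnfrsf1b, 2 for Tnfaip2 and 0 for Tnfsf9, Ltb and Tnfrsf1a.

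Of the 7 genes, 5 were well above 1 TPM (a unit of transcript abundance corrected for length and scaled to each library's total) in both libraries, and the pair of lymphotoxin genes was below it in both. Among 22015 nuclear-encoded protein-coding genes, 9889 (44.9%) reached 1 TPM in both libraries. By mean TPM the order was Tnfaip2, Tnf, Tnfsf9, Tnfrsf1b, Tnfrsf1a, Ltb and Lta, and it was the same in each library. By the same mean, Tnfaip2 ranked 20 and Tnf ranked 42 among the 22015 genes, Tnfsf9 ranked 264, Tnfrsf1b 621 and Tnfrsf1a 2136. The ranks differed between replicates 1 and 2, at 13 and 42 for Tnfaip2, 31 and 96 for Tnf and 186 and 500 for Tnfsf9. Tnfrsf1b ranked 590 and 653 there, and Tnfrsf1a 1972 and 2437.

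Tnf (chromosome 17, 35199381 to 35202007, minus strand, mm10) was measured at 599 TPM in the first library and 208 in the second, from 16298 and 6948 expected counts, a mean of 404 ± 277 TPM (SD, n = 2). Tnfsf9 (chromosome 17, 57105325 to 57107757, plus strand), the second abundant ligand gene, stood at 202 and 67.0 TPM, from 4148 and 1697 counts, or 134 ± 95.2 TPM (SD, n = 2). Both ligand genes were higher in replicate 1, with log2 TPM ratios of -1.53 and -1.59. The ratio of Tnf to Tnfsf9 was nearly the same in both libraries, 2.97 in replicate 1 and 3.10 in replicate 2.

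Lta (chromosome 17, 35203165 to 35205351, minus strand) had 10 counts in replicate 1 (exact Poisson 95% interval 4.80 to 18.4) and 1 count in replicate 2 (0.0253 to 5.57), or 0.450 and 0.0400 TPM. Ltb (chromosome 17, 35194439 to 35196320, plus strand) had 14 and 10 counts, or 0.770 and 0.410 TPM. The level of Tnf in TPM was 778 times that of Ltb in replicate 1 and 508 times in replicate 2. The levels of Ltb and Lta overlapped between the libraries, and the second quantification put Lta at 0.263 and 0.0745 TPM and Ltb at 0.244 and 0.303 TPM, so the order of these 2 is not settled.

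Tnfrsf1b (chromosome 4, 145213463 to 145246870, minus strand) was the more abundant receptor gene, at 81.9 and 55.5 TPM, from 5562 and 4653 counts, or 68.7 ± 18.7 TPM (SD, n = 2). Tnfrsf1a (chromosome 6, 125349362 to 125362484, plus strand) stood at 32.8 and 19.9 TPM, from 1107 and 764 counts, or 26.3 ± 9.14 TPM (SD, n = 2). Their ranges did not overlap, and Tnfrsf1b exceeded Tnfrsf1a by 2.50 times in replicate 1 and 2.79 times in replicate 2. Tnf exceeded Tnfrsf1b by 7.32 times in replicate 1 but by 3.75 times in replicate 2. The ranges of Tnfsf9 and Tnfrsf1b overlapped.

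Tnfaip2 (chromosome 12, 111442469 to 111455018, plus strand) had the highest TPM of the 7 genes, 990 in replicate 1 and 323 in replicate 2, from 34041 and 14660 counts, or 656 ± 471 TPM (SD, n = 2). Its replicate values bracketed the higher Tnf value, so the ranges of these 2 genes overlapped, although Tnfaip2 exceeded Tnf by 1.65 and 1.55 times within each library. The order depended on the measure. Per kilobase of the main transcript, Tnf had 9944 and 4239 counts and Tnfaip2 had 9049 and 3897, so Tnf was then 1.10 and 1.09 times Tnfaip2. With the second quantification's counts that ratio was 1.06 in replicate 1 and 0.952 in replicate 2, so the 2 genes cannot be ordered.

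**Figure D1:**
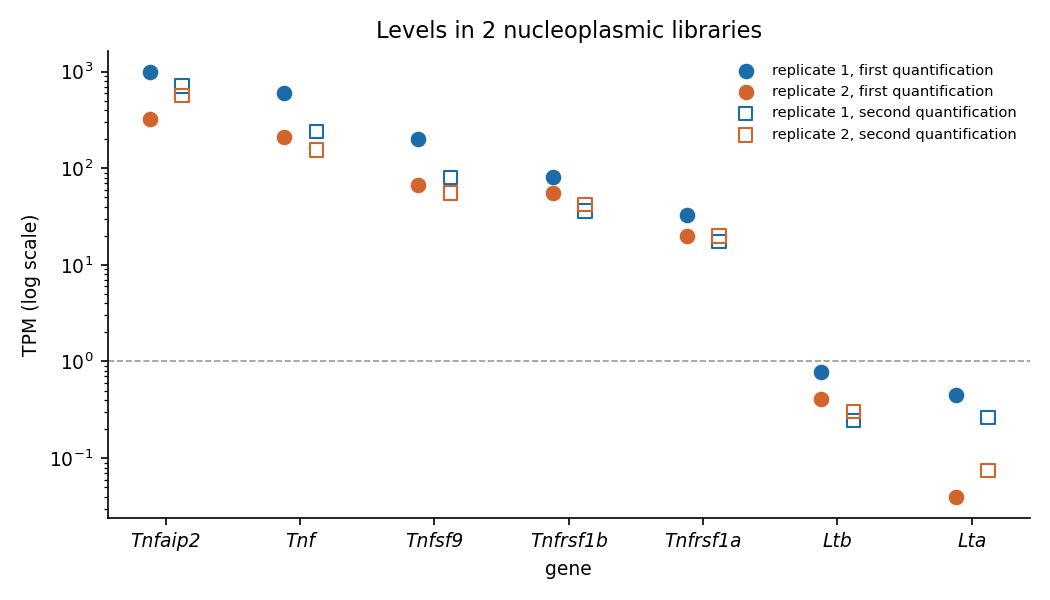
TPM on a log axis for the 7 genes in order of mean TPM, with 1 point per library and quantification and a dashed line at 1 TPM. The upper 5 genes lie above the line in both libraries, and Ltb and Lta lie below it.

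The authors' second quantification, a separate transcript table of each library, gave the same 5 genes at 1 TPM or more. That quantification ranked Tnfaip2 11, Tnf 73, Tnfsf9 408, Tnfrsf1b 895 and Tnfrsf1a 2295 by mean TPM. It put Tnf at 239 and 155 TPM, Tnfsf9 at 80.4 and 55.2, Tnfrsf1b at 36.1 and 42.1, Tnfrsf1a at 17.4 and 19.8 and Tnfaip2 at 712 and 564. In the plot of levels its open squares therefore lie closer together than the filled circles, and those of the receptor genes lie in the opposite order. TPM of all genes shifted between the tables, with a median log2 ratio of second over first of -0.95 in replicate 1 and -0.038 in replicate 2. Counts scaled to library size showed no such shift, with medians of -0.0027 and 0.058, and the 5 abundant genes differed between the tables by -0.13 to 0.062 (log2). TPM also depends on the other RNAs in the total: nuclear protein-coding genes took 28.9% of TPM in replicate 1 and 21.3% in replicate 2. Rescaled to these genes alone, Tnf stood at 2075 and 976 TPM and Tnfaip2 at 3426 and 1516.

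By rule, the protein-coding genes closest to Tnf on the log2(TPM + 0.1) scale over the 2 libraries were Nfkbia, the gene for the NF-kB inhibitor IkB-alpha, at a distance of 0.13, the cyclin gene Ccnl1 at 0.35 and the actin gene Actg1 at 0.40. Those closest to Tnfaip2 were Tcirg1 (0.46), a proton pump subunit gene, Rsrp1 (0.50) and the scavenger receptor gene Stab1 (0.58). These distances were taken in the first quantification. In the second, Nfkbia stood at 363 and 257 TPM, Ccnl1 at 283 and 202 and Actg1 at 153 and 135. Tnf stood there at 239 and 155 TPM. Tcirg1 stood at 376 and 330 TPM in that quantification, Rsrp1 at 287 and 288 and Stab1 at 176 and 177. Each lay below Tnfaip2, at 712 and 564 TPM. With 2 libraries the likeness by distance holds no more than 2 levels.

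The replicates were then compared on counts scaled by the TMM method, which centres most genes near 0, and here the abundant ligand genes and Tnfaip2 stood apart from the receptor genes. Tnf had a log2 ratio of replicate 2 over replicate 1 of -1.17 (exact binomial 95% counting interval -1.21 to -1.13), Tnfsf9 of -1.23 (-1.31 to -1.15) and Tnfaip2 of -1.15 (-1.18 to -1.13). The 3 intervals lay close together, each gene being 2.23 to 2.34 times higher in replicate 1. Tnfrsf1a had -0.47 (-0.61 to -0.34) and Tnfrsf1b had -0.20 (-0.25 to -0.14). Ltb, with few counts, had -0.41 with an interval from -1.76 to 0.85, which includes no difference. Lta was below the mean scaled count of 10 required, and its ratio was -2.76 with an interval from -8.70 to -0.45.

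Of the 6 genes tested, 3 were over 2-fold lower in replicate 2 with an interval clear of 0, against 3.66% of 15557 genes. All 6 ratios were below 0, against 49.6% of genes, and their median was -0.81, against 0.0049 over all genes. In the second quantification the median of the 7 genes was -1.15, against 0.012 over all genes, and 4 of 7 were over 2-fold lower, against 4.06% of 24470 genes. The fourth was Lta, with 19 and 4 counts there and a ratio of -2.35. None of the 7 genes was over 2-fold higher in replicate 2, as 4.37% of the 15557 genes were. With 2 libraries of 1 group these ratios compare libraries, and no p-value was computed.

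Ratios between genes within a library do not depend on scaling. From replicate 1 to replicate 2 the counts of Tnf over Tnfrsf1b changed by -0.97 (log2), those of Tnfsf9 over Tnfrsf1b by -1.03 and those of Tnfaip2 over Tnfrsf1b by -0.96. Against Tnfrsf1a the same 3 genes changed by -0.70, -0.75 and -0.68. The second quantification gave -0.63 to -0.95 for these 6 pairs, so each of the 3 genes was lower relative to either receptor gene in both tables.

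Transcript GC content differed among these genes, and the ratio between the libraries varied with GC content over all genes. The main transcript of Tnf had 52.1% GC, and 1210 tested coding genes within 1 percentage point of it had a median ratio of -0.074, which left Tnf at -1.09 relative to them. Tnfsf9, at 52.5% GC, was left at -1.13. Tnfaip2, at 56.3% GC, was left at -0.96 relative to genes whose median was -0.20, just short of a 2-fold difference. The receptor genes moved closer to 0, to -0.28 for Tnfrsf1a and -0.055 for Tnfrsf1b.

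**Figure D2:**
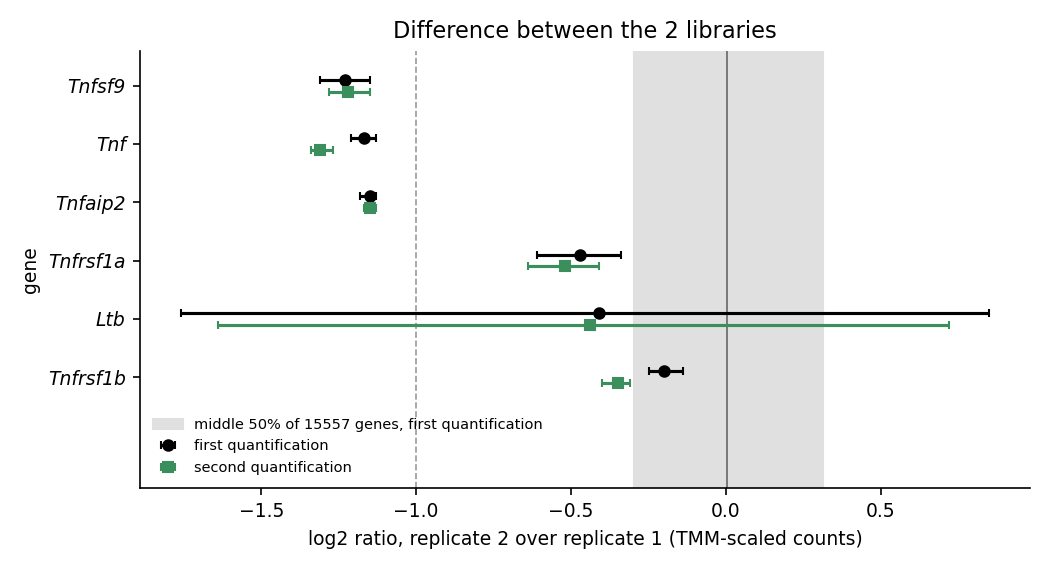
Log2 ratio of replicate 2 over replicate 1 for the 6 tested genes, with exact 95% counting intervals, in both quantifications; the band holds the middle 50% of genes in the first. Tnfsf9, Tnf and Tnfaip2 lie left of the dashed line at 2-fold lower, whereas the receptor genes lie near or inside the band.

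Nuclear RNA includes transcripts whose introns are not all removed, so the share of each gene on its annotated transcripts was examined. The main Tnf transcript has 4 exons over 1639 bases and took 100% of Tnf in the first quantification, and the other annotated transcript was listed at 0. Tnf, Lta, Tnfsf9 and Tnfrsf1b have no annotated transcript with a retained intron, so such RNA could not be assigned in them. Tnfrsf1b-201 took 99.0% of the gene's TPM in replicate 1 and 100% in replicate 2, or 91.1% and 100% in the second quantification. Tnfrsf1a-201 took 86.9% and 77.2%, or 58.5% and 55.6% in the second quantification. Tnfrsf1a-202, annotated as a target of nonsense-mediated decay, took 0.518% and 0% in the first and 22.1% and 16.5% in the second. Tnfrsf1a-205, a retained-intron transcript, took 3.51% and 7.20%, or 13.6% and 17.4% in the second quantification. The shares of Tnfrsf1a-205 rested on 12 and 19 counts in the first quantification, and it holds 2.96% of intron 5. Tnfrsf1a-206, classed as protein-coding, runs through the whole of intron 9. It took 9.06% and 15.6% of TPM in the first quantification, from 38 and 49 counts, and 5.82% and 10.5% in the second. Ltb-202, which runs through the whole of intron 2 of Ltb, had 9 and 4 counts.

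Tnfaip2 has 11 annotated transcripts, of which 4 are classed as retained-intron transcripts. Tnfaip2-207 holds a whole intron of the main transcript, whereas Tnfaip2-203, Tnfaip2-204 and Tnfaip2-206 hold 20.7%, 56.9% and 75.2% of an intron. Together those 4 took 47.5% of its TPM in replicate 1 and 44.4% in replicate 2, or 45.9% ± 2.17 (SD, n = 2). By counts they took 43.1% and 41.3%, and in the second quantification 47.5% and 47.1% of counts. Over the 6518 genes with a retained-intron transcript whose TPM averaged 1 or more, the median share of counts was 19.3% in replicate 1 and 20.0% in replicate 2, and the upper quartile was 39.3% and 42.8%. By counts Tnfaip2 thus lay above the upper quartile in replicate 1 and below it in replicate 2. By TPM in the second quantification it lay lower, at 29.9% and 24.8%, below the medians of 35.5% and 37.4% over these genes.

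By counts, most of that share came from 1 transcript, Tnfaip2-207. By TPM it took 17.6% and 19.0% of the gene, beside 17.4% and 13.7% for Tnfaip2-204. Tnfaip2-207, 3889 bases long, had 12195 counts in replicate 1 and 5261 in replicate 2, 35.8% and 35.9% of the gene. It runs through the whole of intron 5 of the main transcript (169 bases, chromosome 12, 111448370 to 111448538) and 83.1% of intron 6. Tnfaip2-201, the full coding transcript with 12 exons, took 51.0% and 54.6% of counts. In the second quantification their order turned, with 36.5% and 34.6% of counts on Tnfaip2-201 and 39.8% and 40.2% on Tnfaip2-207. Within each table the shares of these 2 transcripts were close between the libraries.

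The measure changed the picture for the shortest transcripts. Tnfaip2-205, 398 bases long, took 2.52% and 2.53% of the counts but 23.8% and 24.5% of the TPM, which divides by length. The second quantification assigned it more counts, 9.47% and 14.1%, and 51.5% and 61.8% of the TPM. Tnfaip2-201 accordingly took a mean of 28.0% of TPM, against 52.8% of counts. Gm40578, an antisense gene that overlaps the 3′ part of Tnfaip2, had 2308 and 1583 counts, and without a stated strand setting its reads and those of Tnfaip2 cannot be told apart. Gm11110, which overlaps Tnfsf9 on the opposite strand, had 23 and 35 counts.

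**Figure D3:**
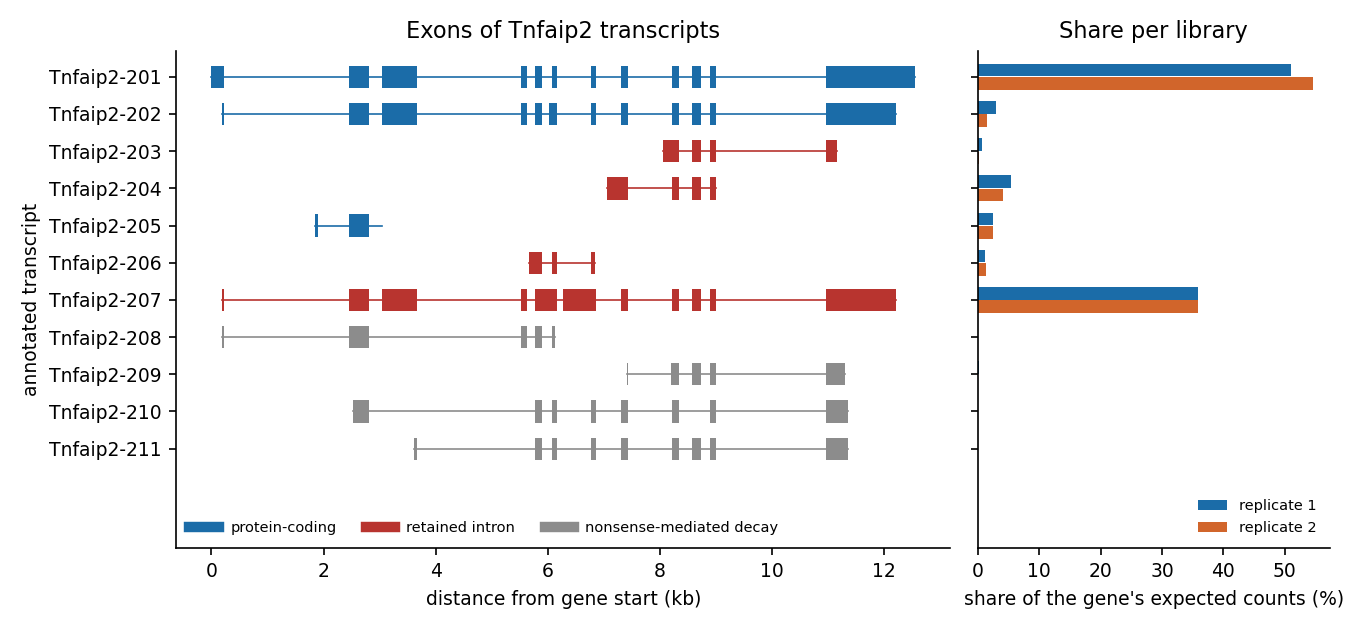
Exons of the 11 annotated Tnfaip2 transcripts by distance from the gene start in kb (left) and the share of the gene's expected counts on each in both libraries (right). Tnfaip2-201 and Tnfaip2-207 hold most of the counts, and their bars are nearly equal in both libraries.

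Tnf was the most abundant of the listed genes around it on chromosome 17. The Lta start lies 3.34 kb upstream of the Tnf start and the Ltb start 7.57 kb downstream, and both genes were below 1 TPM. Of 8 further listed neighbours, 7 reached 1 TPM in both libraries. The highest was the RNA helicase gene Ddx39b, 39.7 kb away, at 160 and 98.2 TPM, against 599 and 208 for Tnf. Of the 7 tested, 2 differed over 2-fold between libraries in opposite directions. They were Aif1, a macrophage gene, at -1.05 and Atp6v1g2, a proton pump subunit gene, at 1.24. Over 15557 genes tested, 3.66% were over 2-fold lower in replicate 2 and 4.37% over 2-fold higher. Apom was the lowest of the 8, at 0.260 and 0.530 TPM.

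**Figure D4:**
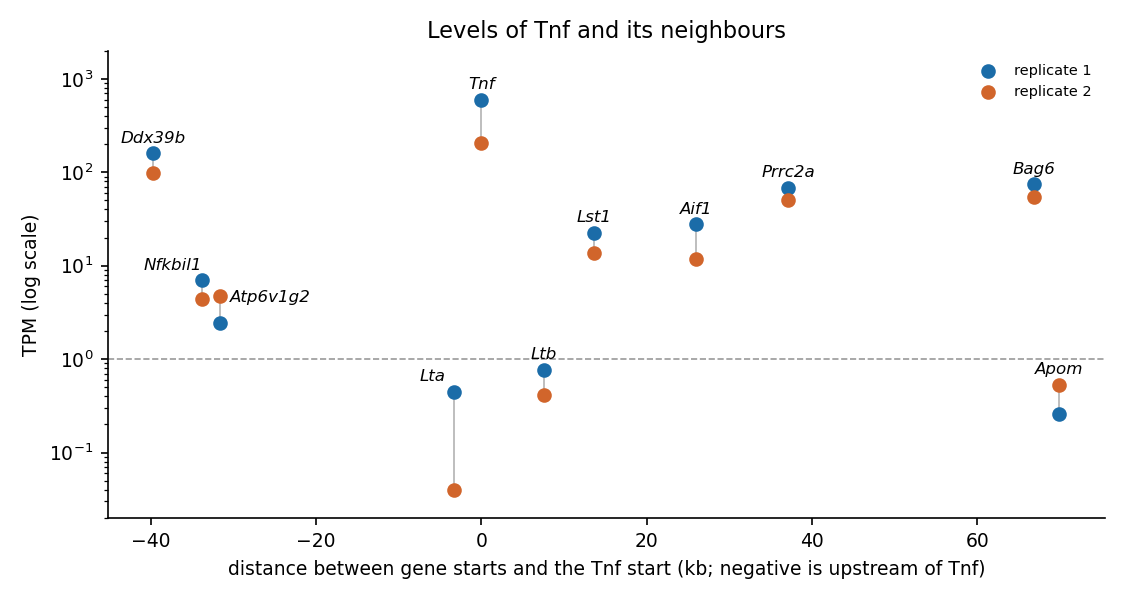
TPM on a log axis against the distance in kb between each gene's start and the Tnf start, with negative distances upstream of Tnf and 1 point per library. Tnf is the highest point, and Lta and Ltb beside it lie below the dashed line at 1 TPM.

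Of 12 genes listed around the other 4, 8 reached 1 TPM in both libraries. Of 11 tested, 2 were over 2-fold lower in replicate 2, against 3.66% of 15557 genes. Not all 12 are close neighbours: Traf3 starts 276 kb from Tnfaip2 and Miip 2622 kb from Tnfrsf1b. Eif5, 95.5 kb downstream of Tnfaip2, was the highest at 154 and 84.1 TPM, with a ratio of -0.30. Plekhg6, near Tnfrsf1a, had -2.01 from 52 and 12 counts, and the complement gene C3, 123 kb from Tnfsf9, had -1.25. Tnfsf14, 88.9 kb from Tnfsf9, was the lowest detected, at 0.420 and 0.550 TPM.

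Other TNF superfamily ligands were scarce. Of 14 listed genes, 2 reached 1 TPM in both libraries: Tnfsf12, the gene for TWEAK, at 26.4 and 21.8 TPM, and Tnfsf13, the gene for APRIL, at 20.5 and 12.7 TPM. Tnfsf11, Cd40lg and Cd70 had 0 counts in both libraries, which allows up to 3 counts, or 0.165 and 0.161 CPM (counts scaled to library size). The lowest detected was Eda, at 0 and 0.0100 TPM, but at 0.267 and 0.241 TPM in the second quantification. None of the 7 tested was over 2-fold different between libraries, and their median ratio was 0.25. Tnfsf12 and Tnfsf13 stood below the 67.0 TPM that Tnfsf9 had in its lower library.

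Of 25 other receptor genes, 13 reached 1 TPM in both libraries. Tnfrsf14, the gene for HVEM, led them at 48.4 and 25.7 TPM, and Ltbr, the gene for the lymphotoxin beta receptor, stood at 17.6 and 9.36 TPM. Tnfrsf9, the gene for 4-1BB, the receptor of the Tnfsf9 product, had 0 and 2 counts. Of 15 tested, 2 were over 2-fold lower in replicate 2, against 3.66% of 15557 genes. They were Cd40, a costimulatory receptor gene, at -1.40 and Tnfrsf8, the CD30 gene 68.3 kb upstream of Tnfrsf1b, at -1.54. The second quantification put Cd40 at 43.4 and 11.5 TPM, against 7.68 and 2.06 in the first. Tnfrsf13c was the lowest detected, at 0 and 0.0200 TPM, but at 1.34 and 5.14 TPM in the second.

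All 29 listed genes of TNF receptor signalling reached 1 TPM in each library, against 44.9% of nuclear-encoded protein-coding genes. Their summed level was 985 and 648 TPM, and 28 of 29 reached 1 TPM in the second quantification. Cflar, whose product FLIP restrains caspase 8, was the highest at 200 and 107 TPM, and Fadd, an adaptor of the death pathway, the lowest at 1.67 and 1.71 TPM, or 0.624 and 1.25 in the second quantification. Birc3, the gene for the ubiquitin ligase cIAP2, was the 1 gene of 29 over 2-fold lower in replicate 2, against 3.66% of 15557 genes. Its ratio was -1.14 from 2816 and 1224 counts, and -0.98 in the second quantification. Tradd, the adaptor that binds TNFR1, had -0.57, and Ripk1, the kinase recruited with it, had 0.24. The median ratio of the 29 was -0.19.

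Genes that act on TNF release or on its mRNA were measured for 14 members, of which 12 reached 1 TPM in each library. Adam17, the gene for the protease that releases TNF, stood at 56.4 and 33.0 TPM, with a ratio of -0.34. Zfp36, which encodes tristetraprolin, the protein that binds AU-rich elements such as the one printed above, was the highest at 491 and 402 TPM. Its ratio was 0.068, whereas that of Tnf was -1.17. Zfp36l1, a relative of Zfp36, was the 1 gene of the list over 2-fold higher in replicate 2, at 1.08, against 4.37% of 15557 genes. Timp3, which encodes an inhibitor of ADAM17, was the lowest at 0.110 and 0.170 TPM, but at 2.45 and 5.06 TPM in the second quantification.

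Among 7 other genes whose symbols begin with Tnfaip, 4 reached 1 TPM in both libraries. Tnfaip3, the gene for the NF-kB inhibitor A20, was the highest at 402 and 194 TPM. It was the 1 gene of 5 tested over 2-fold lower in replicate 2, against 3.66% of 15557 genes. Its ratio of -1.12 was close to the -1.15 of Tnfaip2. Tnfaip8 stood at 58.1 and 46.5 TPM with a ratio of 0.16, and Tnfaip8l3 was the lowest detected, with 1 and 0 counts.

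**Figure D5:**
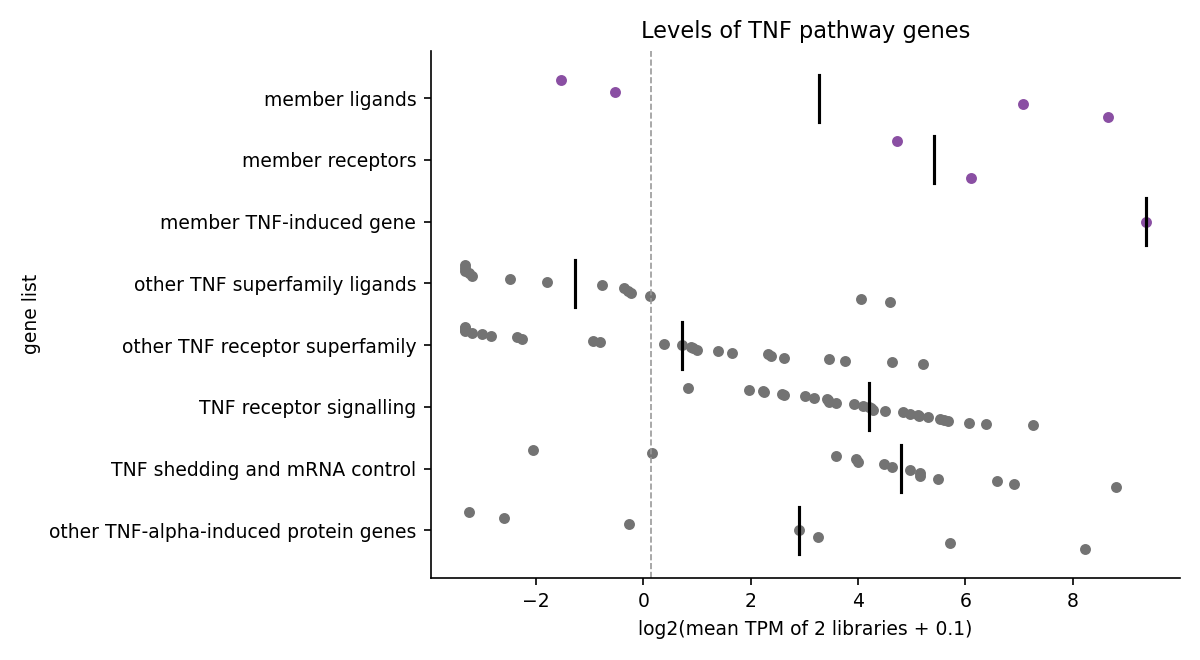
Log2 of mean TPM plus 0.1 for each gene of 8 lists, with a bar at each list's median and a dashed line at 1 TPM. Tnfaip2, Tnf and Tnfsf9 lie at the right of the plot with Zfp36, Tnfaip3 and Cflar, and most other ligand genes lie left of the line.

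Markers were read beside the low lymphotoxin genes, since lymphocytes express them. All 10 macrophage markers reached 1 TPM in both libraries, from 21.3 to 2219 TPM in replicate 1, and none of the 10 was over 2-fold different between the libraries. Of 13 T and NK cell markers, 3 reached 1 TPM in both libraries, and 5 had 0 counts in both, among them the T cell receptor subunit genes Cd3e and Cd3g. In the second quantification 5 of the 13 reached 1 TPM in both libraries, among them Cd3d, at 2.90 and 9.43 TPM against 0.0400 and 0.0300 in the first, and Cd8a, at 1.03 and 1.60 TPM, and Cd3g was at 0.358 and 1.17 TPM. In the first quantification the summed T and NK cell list stood at 150 TPM in replicate 1 and 168 in replicate 2, nearly all of it on Cd28, at 114 and 134 TPM, and Cd4, at 33.7 and 32.5 TPM. The 9 B cell markers summed to 4.59 and 3.86 TPM, most of it on Ighm, at 3.59 and 2.57 TPM, with Pax5 and Fcmr at 0. Of the 2 tested, Cr2 was over 2-fold higher in replicate 2, at 1.05 from 46 and 92 counts, against 4.37% of 15557 genes. In the second quantification the B cell list summed to 2.70 and 11.9 TPM, where Cr2 alone was at 0.904 and 8.97 TPM. In bulk RNA, fewer cells of a type and less RNA per cell cannot be told apart. Lists for neutrophils, dendritic cells, mast cells and stromal cells summed to 9.16 TPM or less each in either library. In the second quantification the stromal list summed to 3.05 and 11.4 TPM, most of it on Lepr, at 2.35 and 10.2 TPM. The other 3 lists summed to 8.09 TPM or less there. What these markers contribute to Lta and Ltb was not tested.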

How the data were processed

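Each library's gene and transcript tables hold TPM, FPKM, expected counts and the posterior mean of TPM as the authors deposited them, in columns that RSEM writes per the file headers. A further transcript table holds estimated counts and TPM in kallisto's columns, per the file headers; it is called the second quantification and was summed per gene. The share of a gene on each transcript, in percent, was computed here from the authors' deposited values. The labels name the mm10 assembly, and all identifiers were found in GENCODE M21; the strand setting and program versions are not given here. Gene totals were 18194818 and 18667509 expected counts. The intervals treat reads as independent and cover counting error only. They may be too narrow even for that, because reads that carry no molecular identifiers need not be independent molecules.

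Expected counts were rounded and scaled by TMM (edgeR 4.0.16, R 4.3.3). Ratios were read where the scaled count averaged 10 or more and used a prior count of 0.5 and exact binomial 95% intervals. Lower or higher means over 2-fold with an interval clear of 0. On data of 15558 genes simulated with counting error alone, 48 of 50 genes lowered by log2 1.5 and 72 of 15358 unchanged genes were called. That simulation held no other variation between libraries, so it gives no error rate for the calls in these data. The members, the 7 gene lists and the 7 marker lists were chosen with earlier results of these data known. Named were all members, each pathway or neighbour list's highest and lowest detected gene and each of its genes over 2-fold different, and the 3 genes nearest to Tnf and to Tnfaip2; Ltbr, Tnfrsf9, Tradd, Ripk1, Adam17, Tnfaip8 and single markers were named for their roles, and Traf3 and Miip for their distance, after their values were seen. Alternatives included DESeq2 1.42.0 size factors. Python 3.11.15 was used with pandas 2.3.3, numpy 2.4.6, matplotlib 3.10.9 and scipy 1.17.1. Sequences came from RefSeq windows and GENCODE transcripts.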

Additional observations from a re-analysis of the deposited data

How the results depend on the processing

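No paired analysis was possible because both libraries belong to 1 group. The 5 genes at 1 TPM or more were also 5 with minimums of 0.5 and 2 TPM, posterior-mean TPM, FPKM, the second quantification and either library alone. The count of 3 genes over 2-fold lower was 3 with DESeq2 size factors, library totals, TPM ratios, a smaller and a larger prior count, a minimum mean count of 50 and a 1.5-fold threshold, and 4 with no minimum or with the second quantification, where Lta was added. It was 2 relative to genes of like GC content, a check added after seeing the data, where Tnfaip2 fell just short. The median ratio of -0.81 was -1.15 with TPM ratios and with the second quantification, -1.16 with no minimum and -1.14 with a minimum of 50, since these add or drop the scarce genes or, for TPM, the shift of all genes (median -0.35), and -0.62 relative to genes of like GC content. Over 6 settings the ratio of Tnf ranged from -1.53 to -1.17, of Tnfsf9 from -1.59 to -1.22 and of Tnfaip2 from -1.61 to -1.15. With counts per kilobase of the main transcript, added after seeing the data, the mean level of Tnf over Tnfaip2 was 1.09 in place of 0.625, and 1.01 in the second quantification (1.06 and 0.952 by library). Depth limits Lta and Ltb, whose 1 to 14 counts cannot settle their order or their ratios, and no ratio can be formed from 1 library.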
